A study of Mus musculus with 8 samples.

Results

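Adhesion G protein-coupled receptors form a family of cell surface receptors, and 9 of its genes are described here in injured mouse kidney. They are Adgrg5, its chromosome 8 neighbours Adgrg1 and Adgrg3, and Adgrl4, Adgrl2, Adgrf5, Adgrf1, Adgre5 and Adgra2. They were matched by symbol to 9 of the 42256 genes in the count table. The genes were picked around Adgrg5, whose counts between the genotypes had already been seen, so their values in that contrast are a description, with no test. The RNA came from kidneys of 8 adult males of a mixed background, 129S1/Sv x C57BL/6. Of these, 4 were labelled CDH11-/- and 4 CDH11+/+, the genotype of cadherin-11, a cell adhesion protein of mesenchymal cells. All 8 received aristolochic acid, a plant toxin that damages the proximal tubule, at 3 mg/kg on each of 5 days, and their kidneys were taken 2 weeks after the last dose. No uninjured kidney was in the comparison. The series is titled for Unx/AngII, another injury, and the sample labels were followed instead.

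Libraries labelled CDH11-/- held 12966177 to 18539479 counts and those labelled CDH11+/+ held 10675309 to 13885009 (means 15.4 ± 2.37 M against 12.7 ± 1.39 M, SD over 4 libraries each, exact two-sided permutation test p = 0.0857, where 0.0286 is the smallest p that 4 against 4 allows). Levels are given as CPM, counts put on a shared library total with trimmed-mean (TMM) factors, for replicates 1 to 4 of each label. A replicate number only names a library. The targeted gene did not go with its label. Cdh11 was at 89.9, 91.3, 112.5 and 117.2 CPM in the libraries labelled CDH11-/-, against 75.6, 58.0, 61.7 and 59.0 CPM in those labelled CDH11+/+, which is 0.69 ± 0.11 on the log2 scale (fitted log2 fold change ± SE, adjusted p = 0.0249 in edgeR). That call ended with the gene-specific factors of the authors (log2 fold change 0.25, adjusted p = 0.531) and when any of CDH11+/+ replicates 2, 3 and 4 or CDH11-/- replicates 3 and 4 was left out (adjusted p 0.0529 to 0.108). Cdh11 overlaps 9430099M06Rik, Gm26301, Gm45257 and Gm45258 on the same strand. Reads of these genes cannot be told apart from those of Cdh11 on the counts alone. The labels do not say which part of Cdh11 was removed, and counts of the whole gene do not settle the genotype. Directions below are those of the libraries labelled CDH11-/- relative to the libraries labelled CDH11+/+. The tissue label was met by proximal tubule markers (Slc34a1 at 545.5 CPM or more in every library) and collecting duct markers (Aqp2 at 184.4 CPM or more).

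An adhesion receptor joins a long extracellular part, built of domains that bind matrix or other cells, to the membrane-spanning core of a G protein-coupled receptor. Most members cut themselves at a site close to the membrane, and the stretch that follows the cut can act as a tethered agonist when the outer fragment moves away. The core then signals through G proteins, often of the Gα12 and Gα13 class towards RhoA or of the Gαs class towards cyclic AMP. In kidney and other organs the family is spread over epithelium, endothelium, stroma and leukocytes.

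The stretches just upstream of the annotated starts of Adgrg5, Adgrg3 and Adgrl4 are shown because Adgrg5 and Adgrg3 are neighbours with unlike values in these libraries, and Adgrl4 has the most positive log2 fold change after Adgrg5 among the 9 genes. Each is the 250 bases before a start in the RefSeq annotation of GRCm38.p6, on the strand of the gene, 5′ to 3′, and contains 0 bases of annotated exon. Capitals mark GGGCGG or its reverse complement CCGCCC, the GC-box core.
Adgrg5, chr8:94923444-94923693, plus strand: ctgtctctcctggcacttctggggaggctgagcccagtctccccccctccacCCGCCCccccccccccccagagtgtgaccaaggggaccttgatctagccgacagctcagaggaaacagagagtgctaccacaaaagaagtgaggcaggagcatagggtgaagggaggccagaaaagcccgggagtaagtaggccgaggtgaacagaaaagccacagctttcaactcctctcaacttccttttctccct
Adgrg3, chr8:95017442-95017691, plus strand: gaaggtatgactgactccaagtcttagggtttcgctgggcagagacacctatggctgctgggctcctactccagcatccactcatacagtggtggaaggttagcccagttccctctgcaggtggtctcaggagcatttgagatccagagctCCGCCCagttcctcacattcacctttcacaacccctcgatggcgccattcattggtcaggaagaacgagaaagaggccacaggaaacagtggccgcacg
Adgrl4, chr3:151437632-151437881, plus strand: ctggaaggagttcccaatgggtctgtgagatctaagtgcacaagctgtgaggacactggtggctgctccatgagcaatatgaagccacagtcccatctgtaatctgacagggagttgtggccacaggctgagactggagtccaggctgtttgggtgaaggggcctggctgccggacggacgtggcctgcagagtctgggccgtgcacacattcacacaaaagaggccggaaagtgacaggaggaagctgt
Both the Adgrg5 and the Adgrg3 stretch hold a GC-box core, 198 and 99 bases before the start, and the Adgrl4 stretch holds none. GC content was 58.8% for Adgrg5, 55.2% for Adgrg3 and 56.8% for Adgrl4, against a median of 52.4% over 32851 RefSeq promoters. Promoter entries were found for 7 of the 9 genes, with 9 starts. GGGCGG on either strand was present upstream of 3 genes (Adgrg5, Adgrg3 and Adgrf1) and in 32.7% of all promoters. TATAAA was present upstream of Adgrl2 alone and in 12.4% of all promoters. The Adgrl2 stretch (chr3:148954636-148954885) lies inside the annotated gene, and 152 of its 250 bases are annotated exon. Both Adgrg1 stretches (60 and 28 exon bases) and the Adgrf5 stretch at chr17:43389216-43389465 (0 exon bases) also lie inside their genes. The Adgrf1 stretch holds 18 exon bases. The motif counts thus mix sequence before genes with sequence inside them. The ETS core CCGGAAG (6.91% of all promoters) and the GATA core AGATAA (9.99%), each read on both strands, were found upstream of none of the 7 genes. These are matches of letters, and the searched motifs share no overlapping hit in the printed stretches.

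Adgrg5 was the gene of the 9 that differed most between the labels. It encodes a receptor that raises cyclic AMP and is known mainly from leukocytes. Adgrg5 (ENSMUSG00000061577, chromosome 8 from 94923694 to 94943280 on the plus strand of GRCm38) gave 295, 355, 412 and 417 counts in the libraries labelled CDH11-/- and 47, 70, 86 and 61 counts in those labelled CDH11+/+. Scaled, these were 19.8, 22.9, 21.8 and 31.6 CPM in CDH11-/- libraries, against 4.34, 5.32, 6.80 and 4.70 CPM in CDH11+/+ libraries. The lowest CDH11-/- library thus lay well above the highest CDH11+/+ library. On average Adgrg5 was at 24.0 ± 5.20 CPM in CDH11-/- and 5.29 ± 1.09 CPM in CDH11+/+ libraries (SD, n = 4 each), a ratio of 4.54 and a fitted log2 fold change of 2.17 ± 0.18 (SE). CDH11-/- replicate 4 was the highest library of its label and CDH11+/+ replicate 3 of the other.

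Adgrg1 begins 31.5 kb after Adgrg5 ends, on the same strand, and was the most abundant of the 9 genes. It encodes GPR56, a receptor for collagen III and transglutaminase 2 that signals to RhoA and is needed for cortical development of the brain. Adgrg1 (8, 94974751 to 95014217) was at 435.7, 402.9, 393.1 and 369.7 CPM in CDH11-/- libraries, against 410.6, 432.7, 446.1 and 438.4 CPM in CDH11+/+ libraries. The groups overlapped, since CDH11-/- replicate 1 lay above CDH11+/+ replicates 1 and 2, and the log2 fold change was −0.11 ± 0.07 (SE). Adgrg3 starts a further 3.47 kb downstream and encodes GPR97, a receptor described in granulocytes and other leukocytes. Adgrg3 (8, 95017692 to 95045250) was at 17.3, 24.4, 22.3 and 22.6 CPM in CDH11-/- libraries and at 21.1, 24.6, 29.4 and 25.5 CPM in CDH11+/+ libraries. These ranges also overlapped, with a log2 fold change of −0.22 ± 0.12 (SE). Of the 3 neighbours, then, Adgrg5 was higher in each CDH11-/- library while Adgrg1 and Adgrg3 had slightly lower means there.

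Relative to Adgrg1 in the same library, per kb of exon, Adgrg5 stood at 7.86%, 9.84%, 9.56% and 14.8% in CDH11-/- libraries and at 1.83%, 2.12%, 2.64% and 1.85% in CDH11+/+ libraries. A ratio within a library does not depend on how the library totals were scaled. The separation between the labels is present without that step. The ratio reuses the Adgrg5 counts that had already been seen, so it is a description and gives no separate support.

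**Figure D1:**
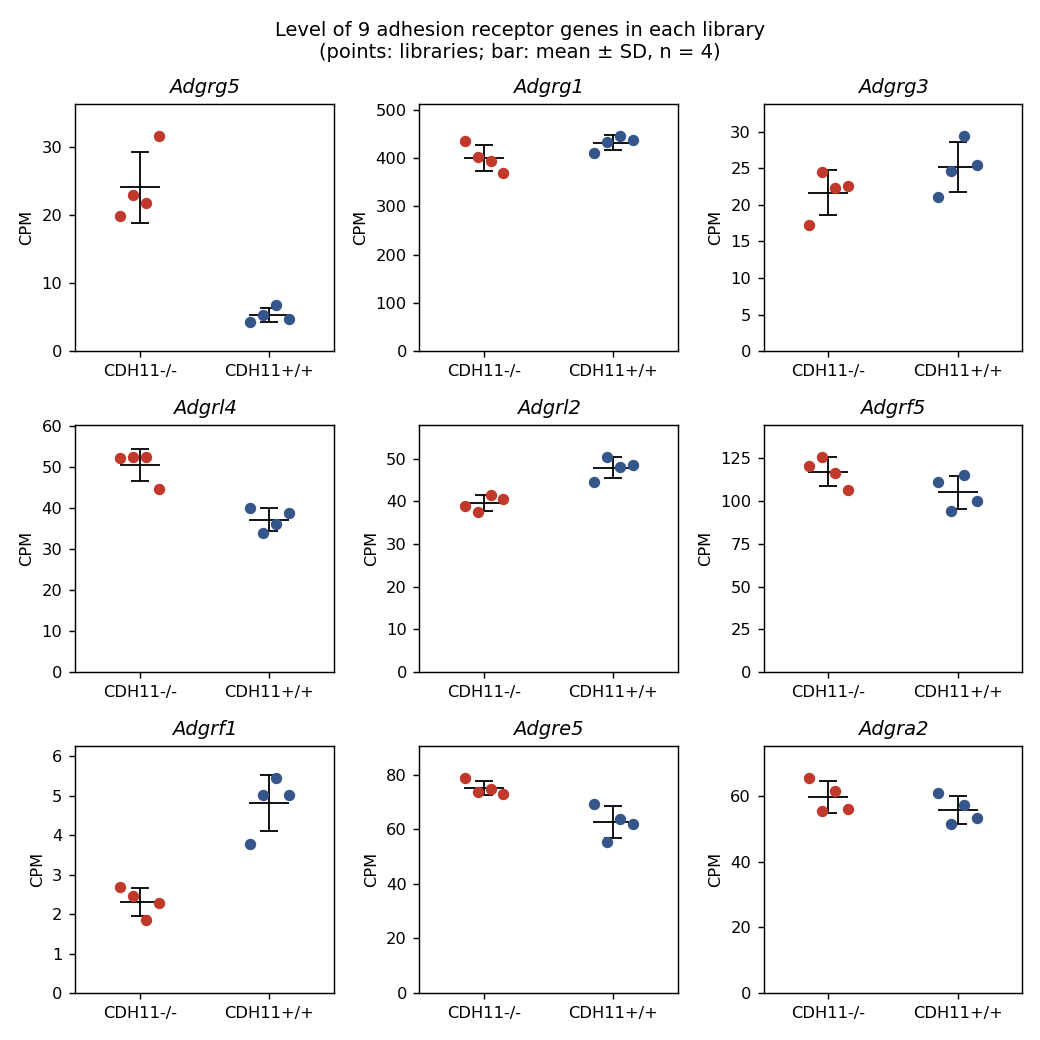
Level in CPM (vertical axes, each from 0) of the 9 adhesion receptor genes in the 4 CDH11-/- libraries (red, left) and the 4 CDH11+/+ libraries (blue, right). Points are libraries in replicate order and bars are mean ± SD. Adgrg5 lies at 19.8 to 31.6 CPM in CDH11-/- and 4.34 to 6.80 CPM in CDH11+/+ libraries, Adgrf1 is lower in every CDH11-/- library, and Adgrg1 overlaps.

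Adgrl4, Adgrf5 and Adgra2 are among the receptors known from endothelium, and their log2 fold changes were positive. They were not picked as a full list of such receptors and were not tested as a set. Adgrl2, described after them, went the other way (log2 fold change −0.28 ± 0.07, SE). Adgrl4, also called ELTD1, is an endothelial receptor of growing vessels. Adgrl4 (chromosome 3, 151437887 to 151545086) was at 52.2, 52.4, 52.4 and 44.5 CPM in CDH11-/- libraries, against 39.9, 33.9, 36.1 and 38.8 CPM in CDH11+/+ libraries. All 4 CDH11-/- values were above all CDH11+/+ values, and CDH11-/- replicate 4 lay apart below its group. The log2 fold change was 0.44 ± 0.08 (SE). Adgrf5, or GPR116, limits surfactant in the mouse lung and is expressed in endothelium and in acid-secreting intercalated cells of the kidney. Adgrf5 (chromosome 17, 43360451 to 43459557) was at 120.3, 125.9, 116.7 and 106.3 CPM in CDH11-/- libraries, against 110.9, 94.4, 115.5 and 99.9 CPM in CDH11+/+ libraries. Here the groups overlapped, with a log2 fold change of 0.16 ± 0.08 (SE). Adgra2, or GPR124, works with Reck as a co-receptor for Wnt7 in brain vessels. Adgra2 (chromosome 8, 27085583 to 27123436) was at 65.6, 55.6, 61.5 and 56.0 CPM in CDH11-/- libraries and 61.1, 51.5, 57.4 and 53.2 CPM in CDH11+/+ libraries, which overlapped (log2 fold change 0.10 ± 0.08, SE).

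Adgrl2 encodes latrophilin 2, which binds teneurins and FLRT proteins on neighbouring cells. Adgrl2 (chromosome 3, 148815583 to 148990555, minus strand) was at 38.8, 37.4, 41.4 and 40.7 CPM in CDH11-/- libraries, against 44.7, 50.5, 48.2 and 48.5 CPM in CDH11+/+ libraries. Every CDH11-/- library was below every CDH11+/+ library, by a log2 fold change of −0.28 ± 0.07 (SE). With the gene-specific factors of the authors as offsets this shrank to −0.15. Endothelial markers are set beside these genes, and 0 of them passed the test. The summed level of the 12 listed markers was 694.4 to 758.3 CPM in CDH11-/- libraries and 518.2 to 683.5 CPM in CDH11+/+ libraries, without overlap, and its part in the values of Adgrl4 and Adgrf5 was not tested. In bulk tissue, fewer cells of a type and less RNA per cell cannot be told apart, and this holds for every value given here.

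Adgre5 and Adgrf1 complete the set. Adgre5 encodes CD97, a leukocyte receptor that binds CD55 and Thy1. Adgre5 (chromosome 8, 83723251 to 83741326, minus strand) was at 79.0, 73.8, 74.7 and 73.2 CPM in CDH11-/- libraries, against 69.5, 55.5, 63.7 and 62.1 CPM in CDH11+/+ libraries. The groups did not overlap (log2 fold change 0.26 ± 0.07, SE), and CDH11+/+ replicate 1 came closest to the other label. Adgrf1, or GPR110, is the receptor of the lipid synaptamide in mouse neurons. It lies 35.7 kb from Adgrf5 on chromosome 17 (43270329 to 43324737) and had the lowest counts of the 9, at 40, 38, 35 and 30 in CDH11-/- libraries and 41, 66, 69 and 65 in CDH11+/+ libraries. Scaled, Adgrf1 was at 2.69, 2.46, 1.85 and 2.27 CPM in CDH11-/- libraries and at 3.78, 5.01, 5.46 and 5.01 CPM in CDH11+/+ libraries. Each CDH11-/- library was below each CDH11+/+ library, with a log2 fold change of −1.07 ± 0.19 (SE). Reads of genes that overlap Adgrl2 (Gm43573), Adgre5 (Ddx39), Adgra2 (Brf2) and Adgrf5 (Gm25135) cannot be told apart from theirs on the counts alone.

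Genes were tested across the whole table with the edgeR quasi-likelihood test, adjusted by Benjamini-Hochberg over 15852 genes at a threshold of 0.05. All 9 receptor genes passed the filter on low counts. In this test 3 of the 9 were past the threshold, Adgrg5 and Adgrl4 higher and Adgrf1 lower, against 0.725% of all tested genes (0.360% higher and 0.366% lower). The CPM ranges of the labels did not overlap for 5 of the 9 (Adgrg5, Adgrl4 and Adgre5 higher, Adgrl2 and Adgrf1 lower), against 7.33% of all tested genes (3.59% higher and 3.74% lower). Since the genes were chosen with this contrast in view, nothing is read from either share. The calls of the 9 genes in the alternatives that follow are likewise a description and give no support for a difference. The 3 past the threshold became 1 (Adgrg5) when any of CDH11+/+ replicates 2, 3 and 4 or CDH11-/- replicates 1, 2 and 3 was left out, 2 (with Adgrl4) without CDH11-/- replicate 4, and 5 (with Adgrl2 and Adgre5) without CDH11+/+ replicate 1. DESeq2 and limma-voom each called the same 5 of the 9, against 3.43% and 4.32% of all genes. With the authors' factors as offsets and with limma on the normalized values 1 of the 9, Adgrg5, was past the threshold, against 0.410% and 0.341% of all genes. The count over all genes was 27 without CDH11+/+ replicate 4 and 993 without CDH11+/+ replicate 1. The log2 fold change of each of the 9 genes kept its sign in all 17 alternatives, and that of Adgrg5 lay between 2.03 and 2.32.

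**Figure D2:**
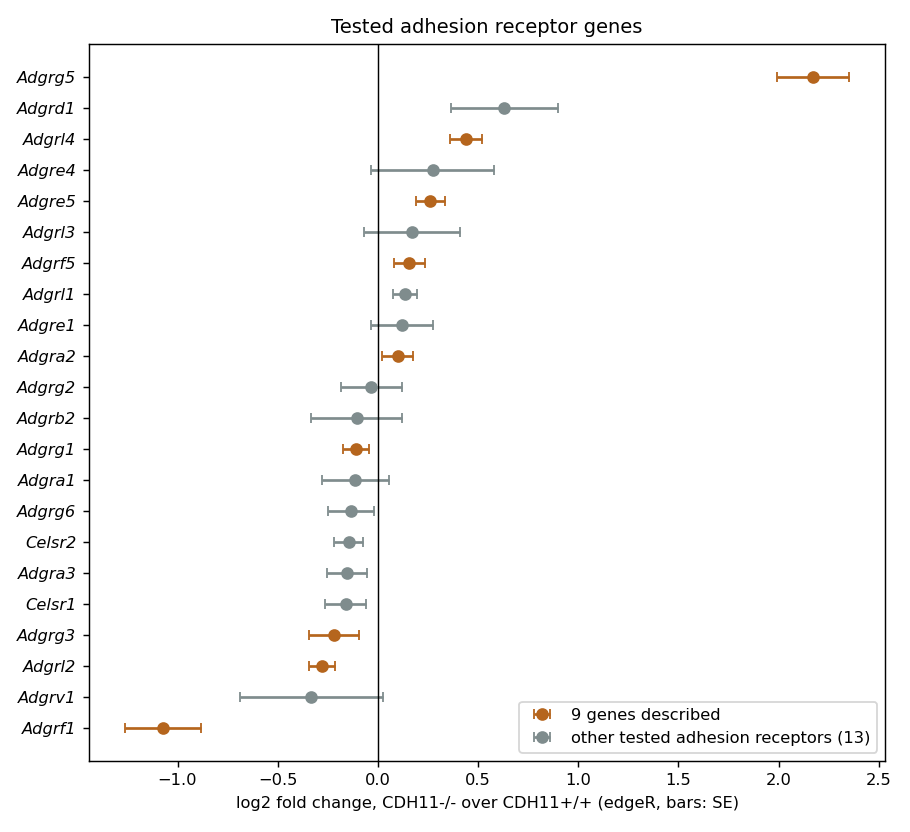
Log2 fold change, CDH11-/- over CDH11+/+ (horizontal axis, edgeR, bars SE), of the 9 genes described (orange) and the 13 other adhesion receptor genes that were tested (grey). Adgrg5 stands at 2.17 and Adgrf1 at −1.07, with all others between them.

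Levels per kb of exon allow the 9 genes to be compared with each other. They are ranked here by the mean over the 4 libraries of a label, and overlap refers to the ranges over those libraries. In CDH11-/- libraries Adgrg1 led with 73.8 ± 5.05 CPM per kb, followed by Adgre5 (20.01 ± 0.70) and Adgrf5 (13.02 ± 0.92), each clear of the next in all 4 libraries. Adgrl4 (11.0 ± 0.85), Adgra2 (10.3 ± 0.83) and Adgrg5 (7.66 ± 1.66 CPM per kb) came next, and each of these overlapped its neighbour in the order. Adgrg3 (3.13 ± 0.45) and Adgrl2 (2.79 ± 0.13) overlapped as well, and Adgrf1 was lowest at 0.60 ± 0.09 CPM per kb (SD, n = 4 for each). In CDH11+/+ libraries the order again began with Adgrg1 (79.7 ± 2.82), Adgre5 (16.7 ± 1.53) and Adgrf5 (11.7 ± 1.08 CPM per kb). Adgra2 (9.66 ± 0.74) overlapped Adgrf5 and was clear of Adgrl4 (8.10 ± 0.59), and Adgrg3 (3.65 ± 0.49) overlapped Adgrl2 (3.38 ± 0.17). Adgrg5 was at 1.69 ± 0.35 CPM per kb there, overlapping Adgrf1 at 1.25 ± 0.19 (SD, n = 4 for each). By these means Adgrg5 was 6th of the 9 genes in CDH11-/- libraries and 8th in CDH11+/+ libraries. In CDH11-/- replicate 4 Adgrg5 lay above Adgrl4 and Adgra2 (10.07 against 9.714 and 9.706 CPM per kb). In each CDH11+/+ library it was above Adgrf1.

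**Figure D3:**
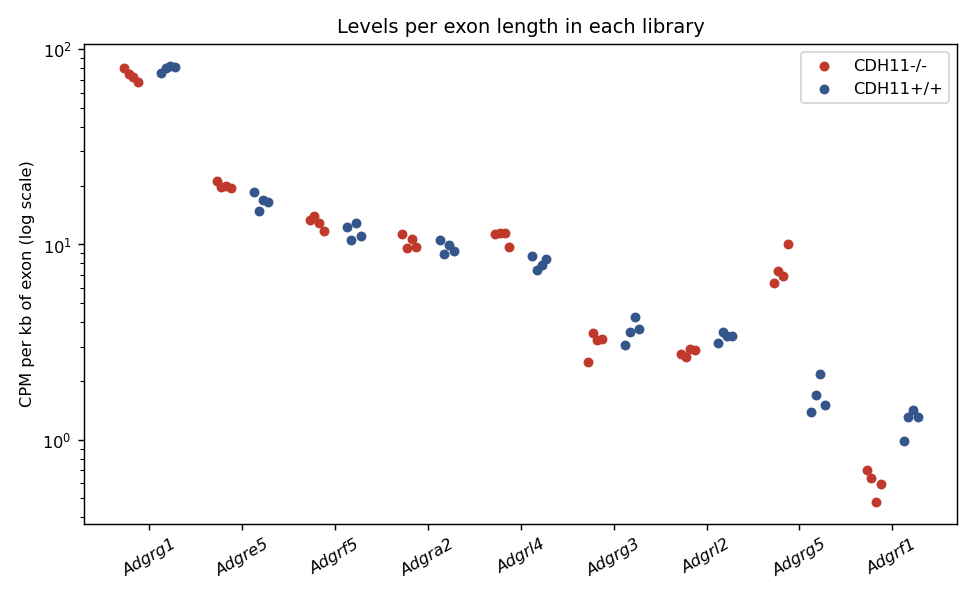
Level in CPM per kb of exon (vertical axis, log scale) of the 9 genes in CDH11-/- (red, left) and CDH11+/+ libraries (blue, right), 1 point per library. Adgrg1 is highest at 68.2 to 82.3 CPM per kb over the 8 libraries, and Adgrg5 is at 6.32 to 10.1 in CDH11-/- and 1.38 to 2.17 CPM per kb in CDH11+/+ libraries.

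The spread among mice of one label also differed between the genes. The coefficient of variation of Adgrg5 was 21.7% in CDH11-/- and 20.6% in CDH11+/+ libraries, while counting alone would give 5.20% and 12.3%. That of Adgrg1 was 6.84% in CDH11-/- and 3.54% in CDH11+/+ libraries, and that of Adgrl2 was 4.58% in CDH11-/- and 5.03% in CDH11+/+ libraries, near its counting error of 4.02% and 4.09%. For Adgrf1 the spread, 15.3% in CDH11-/- and 14.96% in CDH11+/+ libraries, was near its counting error of 16.7% and 12.9%, so its low counts limit the precision.

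The authors also deposited normalized values, made from the counts with a factor for every gene in every library. Adgrg5 was at 256.0, 357.8, 269.4 and 409.5 in CDH11-/- libraries, against 101.2, 65.6, 82.8 and 55.9 in CDH11+/+ libraries (means 323 ± 73.2 and 76.4 ± 19.95 normalized counts, SD, n = 4 each). The labels did not overlap in these values either. CDH11+/+ replicate 1, which had the lowest CPM of its label, had the highest normalized value, since its factor for Adgrg5 was 0.593 of the library median against 1.12 to 1.16 in the other CDH11+/+ libraries. In CDH11-/- libraries that factor was 1.07, 0.886, 1.13 and 1.06. Factors of CDH11-/- and CDH11+/+ libraries overlapped for all 9 genes, while they did not overlap for 2.45% of the 14733 genes that had 10 or more counts throughout. In the normalized values the labels were apart for 3 of the 9 genes (Adgrg5 and Adgre5 higher, Adgrf1 lower), against 6.98% of all tested genes. Adgrl4 and Adgrl2, apart in CPM, overlapped in these values. Adgrl4 was at 711, 765, 783 and 558 in CDH11-/- and 601, 491, 407 and 569 normalized counts in CDH11+/+ libraries. Adgrf1 was the 1 gene whose factor lay within 5% of the library median in every library.

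**Figure D4:**
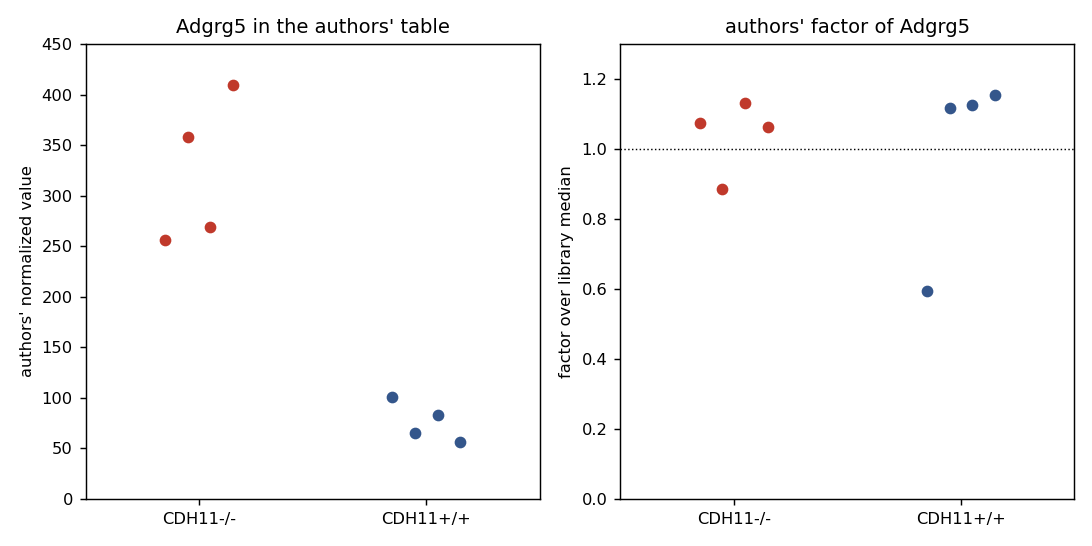
Adgrg5 in the authors' normalized values (left panel, normalized counts, axis from 0) and the authors' factor of Adgrg5 over the median factor of its library (right panel, a ratio, dotted line at 1), CDH11-/- libraries left and CDH11+/+ right in each panel, 1 point per library. Normalized values are 256.0 to 409.5 in CDH11-/- and 55.9 to 101.2 in CDH11+/+ libraries, and the factor of CDH11+/+ replicate 1 is 0.593.

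The genes around Adgrg5 on chromosome 8 were not chosen on the contrast and could be tested. Among the 21 other tested genes within 500 kb, 0 passed the edgeR test, with 6 at an unadjusted p under 0.05 (DESeq2 and limma-voom each called 1, Ciapin1). Over all tested genes, 0.725% passed in edgeR, so 0 of 21 says little. Of all tested genes, 14.4% were at an unadjusted p under 0.05 (2278 of 15852), and DESeq2 called 3.43% and limma-voom 4.32%. The median log2 fold change of the 21 neighbours was 0.01, against −0.01 over all tested genes, and their values ran from −0.30 to 0.46. The window holds a chemokine group, with Ccl22 at −0.30 ± 0.26, Ccl17 at −0.23 ± 0.31 and Cx3cl1 at 0.20 ± 0.07 (log2 fold change ± SE). Cx3cl1, the ligand of the phagocyte receptor Cx3cr1, was at 272.6, 257.9, 300.7 and 263.6 CPM in CDH11-/- libraries and 250, 211.5, 246.7 and 248.3 CPM in CDH11+/+ libraries, without overlap (edgeR adjusted p = 0.263).

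Ciapin1, a factor of iron-sulfur cluster assembly, came closest to the threshold among these neighbours. It was at 58.3, 63.1, 60.3 and 51.4 CPM in CDH11-/- libraries, against 40.4, 47.6, 43.9 and 47.4 CPM in CDH11+/+ libraries. The groups did not overlap, and the log2 fold change was 0.38 ± 0.08 (SE, adjusted p = 0.0628 in edgeR, with 6 of 17 alternatives past the threshold and a range of 0.00357 to 0.528). Coq9, a coenzyme Q synthesis gene that overlaps Ciapin1 on the other strand, was at −0.30 ± 0.13 (adjusted p = 0.332) and passed only without CDH11+/+ replicate 1 (log2 fold change −0.40, adjusted p = 0.0302). Kifc3, a kinesin gene, was at 0.19 ± 0.07, Ccdc102a at 0.20 ± 0.11, Dok4 at 0.08 ± 0.10 and Polr2c, an RNA polymerase II subunit, at −0.05 ± 0.08. Pllp was at −0.22 ± 0.24 and Arl2bp at 0.01 ± 0.05 (log2 fold change ± SE, edgeR adjusted p 0.229 or more for these). Mmp15, named for the highest fold change in the window after its value was seen, was at 0.46 ± 0.15 (adjusted p = 0.2). Cdh11 itself lies 7.69 Mb from Adgrg5. Among 182 other tested genes within 10 Mb of Cdh11 0 passed in edgeR, against 0.725% of all tested genes. At an unadjusted p under 0.05 were 30 (16.5%, against 14.4% of all tested genes). DESeq2 called 8 of the 182, limma-voom 10, and edgeR without CDH11+/+ replicate 1 called 17, where it called 993 of all genes. The log2 fold changes of these 182 ran from −1.48 to 2.49. Without overlap of CPM between the labels, 4 were higher and 13 lower, against 3.59% and 3.74% of all tested genes. Cdh11 and Adgrg5 lie in that window and were left out of these counts, as were the other described receptor genes.

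**Figure D5:**
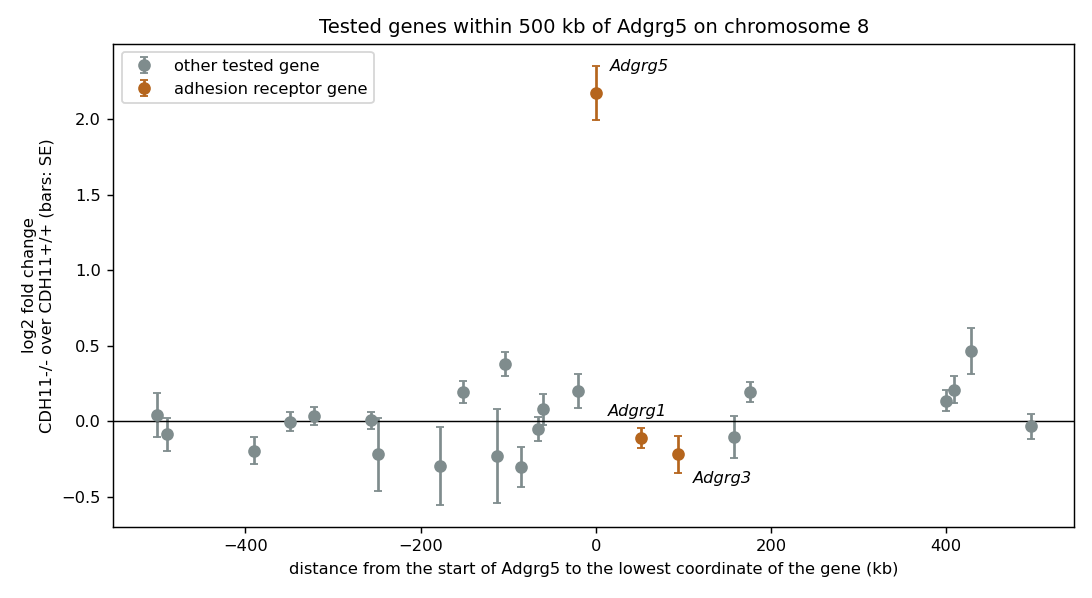
Log2 fold change, CDH11-/- over CDH11+/+ (vertical axis, edgeR, bars SE), of tested genes within 500 kb of Adgrg5 against the distance of their lowest coordinate from the start of Adgrg5 in kb (horizontal axis). Adgrg5 is at 2.17, Adgrg1 and Adgrg3 (orange) at −0.11 and −0.22, and the 21 other genes (grey) between −0.30 and 0.46.

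Outside the 9 genes, 21 further adhesion receptor genes were listed, of which 13 had enough counts to be tested. Of these, 0 passed the edgeR test, which 0.725% of all tested genes passed, so 0 of 13 says little. At an unadjusted p under 0.05 was 1 (7.69%, against 14.4% of all tested genes), and 0 were called by DESeq2 or limma-voom. Their median log2 fold change was −0.11, against −0.01 over all tested genes, with 5 positive and 8 negative. Adgrd1, or GPR133, was at 3.63, 2.46, 2.11 and 3.26 CPM in CDH11-/- libraries and 2.58, 1.90, 1.34 and 1.54 CPM in CDH11+/+ libraries, which overlapped (0.63 ± 0.27, log2 fold change ± SE, with an edgeR adjusted p = 0.317). Adgrl1, or latrophilin 1, was at 0.14 ± 0.06, and Adgrg6, a receptor needed for myelination by Schwann cells, at −0.13 ± 0.11. The planar polarity genes Celsr2 and Celsr1 were at −0.15 ± 0.07 and −0.16 ± 0.10, and Adgra3 at −0.15 ± 0.10 (log2 fold change ± SE, adjusted p 0.351 or more for these 5). Adgre1, which encodes the macrophage antigen F4/80 and is named here after its values were seen, passed without CDH11+/+ replicate 1 (log2 fold change 0.31, adjusted p = 0.0478). With all libraries it was at 97.2, 95.5, 109.5 and 106.6 CPM in CDH11-/- and 128.1, 87.1, 72.9 and 88.6 CPM in CDH11+/+ libraries. Of the 21 genes, 7 were under 1 CPM in every library.

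Ligands and surface partners of these receptors were listed from what is known of the family, and 29 of 33 were tested. The list was drawn up with earlier results of these data known. Tenm2, which encodes a teneurin that binds latrophilins, rose, and 28 did not pass, where 0.725% of all tested genes passed. Tenm2 was at 2.08, 2.07, 3.11 and 2.12 CPM in CDH11-/- libraries, against 0.923, 0.684, 0.475 and 0.540 CPM in CDH11+/+ libraries, which rest on 6 to 10 counts each. No library overlapped. The fitted log2 fold change was 1.87 ± 0.30 (SE), at an adjusted p of 0.0224 in edgeR. The call ended in 7 of 17 alternatives, with the authors' factors as offsets (adjusted p = 0.0729), with limma on the normalized values (0.0696), and when CDH11+/+ replicate 2 (0.0705), 3 (0.0615) or 4 (0.0973) or CDH11-/- replicate 1 (0.0588) or 3 (0.062) was left out.

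Of the other ligands, Tenm3 (0.51 ± 0.14, edgeR adjusted p = 0.138) and the latrophilin ligand Flrt2 (0.52 ± 0.16, adjusted p = 0.182) had positive log2 fold changes. So did Wnt7b, the Wnt that Adgra2 helps to read (0.32 ± 0.11, adjusted p = 0.204), and the laminin chain Lama2, a partner of Adgrg6 (0.34 ± 0.12, adjusted p = 0.228). Tgm2, the transglutaminase that binds Adgrg1, was at 392.7, 371.8, 398.7 and 355.2 CPM in CDH11-/- libraries, below 429.5, 445.4, 432.9 and 415.2 CPM in CDH11+/+ libraries (−0.18 ± 0.06, log2 fold change ± SE, with an edgeR adjusted p = 0.207). The median log2 fold change of the list was 0.16, against −0.01 over all tested genes, with 21 positive and 8 negative. In the list 10 were at an unadjusted p under 0.05 (34.5%, against 14.4% of all tested genes). Limma-voom called 2 of the list (Tenm2 and Col3a1, the collagen III chain that binds Adgrg1) and DESeq2 called Tenm2 alone, against 4.32% and 3.43% of all tested genes. Without CDH11+/+ replicate 1, edgeR called 3, with Col3a1 (log2 fold change 0.67, adjusted p = 0.0112) and Itgb1 (0.27, adjusted p = 0.0489) beside Tenm2.

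Transducers carry the signal onwards from the receptor. Of 28 listed genes for G protein subunits, RhoA exchange factors and kinases, arrestins and adenylyl cyclases, all were tested. In edgeR 0 passed, which says little where 0.725% of all tested genes passed. At an unadjusted p under 0.05 were 3 (10.7%, against 14.4% of all tested genes). DESeq2 called 0 and limma-voom 1 (Adcy7), against 3.43% and 4.32% of all tested genes. The median log2 fold change of the 28 was −0.0014, with 14 positive. Adcy7, an adenylyl cyclase of haematopoietic cells, was at 114.6, 109.4, 123.5 and 138.3 CPM in CDH11-/- and 111.6, 80.9, 101.7 and 89.2 CPM in CDH11+/+ libraries (0.34 ± 0.11, log2 fold change ± SE, with an edgeR adjusted p = 0.182). It passed without CDH11+/+ replicate 1 (log2 fold change 0.43, adjusted p = 0.0259), as did the receptor kinase gene Grk5 (0.35, adjusted p = 0.039), named after its values were seen. Adcy3 was at 0.38 ± 0.12 (adjusted p = 0.197), and Gna14, a Gαq class subunit, at −0.37 ± 0.11 (adjusted p = 0.166).

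The genes whose profile over the 8 libraries was most like that of Adgrg5 were Pla2g4b, Slpi, Tenm2, Slc24a5 and Stmn2. Likeness was the root mean square difference of log2 CPM centred on each gene's mean, which was 0.458, 0.489, 0.512, 0.527 and 0.543 in that order over 8 libraries. These genes were picked by that likeness, so their difference between the labels is a description. Pla2g4b, a cytosolic phospholipase A2 gene that overlaps Gm28042 and Sptbn5, was at 6.25, 5.24, 6.81 and 9.09 CPM in CDH11-/- libraries and 1.84, 1.90, 1.27 and 0.617 CPM in CDH11+/+ libraries. Like Adgrg5, it was highest in CDH11-/- replicate 4. Slpi, a secreted inhibitor of leukocyte proteases, was at 8.73, 5.30, 6.07 and 5.98 CPM in CDH11-/- libraries and 1.75, 1.37, 2.45 and 2.62 CPM in CDH11+/+ libraries. Stmn2, a microtubule regulator of neurons, was at 3.29 to 4.78 CPM in CDH11-/- and 0.870 to 1.77 CPM in CDH11+/+ libraries. Slc24a5, a cation exchanger of melanosomes, was at 1.53 to 2.65 CPM in CDH11-/- and 0.317 to 0.684 CPM in CDH11+/+ libraries.

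Markers of the cell types in which these receptors are known were read in the same fit, beside a median log2 fold change of −0.01 over all tested genes. Of all tested genes, 0.725% passed in edgeR, so 0 passing in a marker list this short says little. A share of 14.4% was at an unadjusted p under 0.05, 3.43% were called by DESeq2 and 4.32% by limma-voom. Among 12 endothelial markers 0 passed (8 at an unadjusted p under 0.05, DESeq2 6, limma-voom 7), all 12 log2 fold changes were positive and their median was 0.29. The most abundant, Eng and Plvap, were at 0.16 ± 0.08 and 0.41 ± 0.10 (log2 fold change ± SE, edgeR adjusted p = 0.412 and 0.108).

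Leukocyte markers are set beside Adgrg5, Adgrg3 and Adgre5. Of 12 tested T and NK cell markers 0 passed (4 at an unadjusted p under 0.05, DESeq2 1, limma-voom 1), with a median of 0.13. The summed level of all 14 listed T and NK cell markers was 170.6 to 260.3 CPM in CDH11-/- and 153.8 to 197.8 CPM in CDH11+/+ libraries. Cd8a and Lck were at 0.16 ± 0.17 and 0.28 ± 0.11 (log2 fold change ± SE). Of the 12 tested, 8 had a positive log2 fold change and 4 a negative one. The lowest adjusted p of that list was that of Gzma, named after its value was seen (log2 fold change −1.38 ± 0.34, SE, edgeR adjusted p = 0.0954). Of 6 tested B and plasma cell markers 0 passed (2 at an unadjusted p under 0.05, DESeq2 1, limma-voom 1), with a median of 0.53. The summed level of all 10 listed B and plasma cell markers, 268.5 to 314.9 CPM in CDH11-/- and 56.0 to 152.9 CPM in CDH11+/+ libraries, did not overlap. The listed Jchain, the joining chain of secreted antibodies, was at 189.1, 241.1, 246.5 and 202.4 CPM in CDH11-/- and 5.08, 3.57, 94.3 and 44.0 CPM in CDH11+/+ libraries (edgeR adjusted p = 0.31). Jchain was the larger part of the sum in all 4 CDH11-/- libraries and in CDH11+/+ replicate 3. Sdc1, at 64.3, 47.2, 54.7 and 50.8 CPM in CDH11-/- and 55.9, 44.2, 46.2 and 45.4 CPM in CDH11+/+ libraries (log2 fold change 0.18 ± 0.10, SE), exceeded Jchain in CDH11+/+ replicates 1, 2 and 4.

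Granulocyte markers were close to the floor. Elane had 0 counts in every library, 9 of 13 markers were under 1 CPM in every library, and the eosinophil genes Epx, Siglecf and Ccr3 reached at most 0.738, 0.848 and 0.833 CPM. Of the 3 tested, 0 passed (0 at an unadjusted p under 0.05, DESeq2 0, limma-voom 0), with a median log2 fold change of −0.07. Their list summed to 27.7 to 32.1 CPM in CDH11-/- and 26.9 to 39.4 CPM in CDH11+/+ libraries, mostly from Csf3r and Il5ra, both at −0.07. Of 13 mononuclear phagocyte markers 1 rose, Mertk, a receptor for the uptake of dying cells (2 at an unadjusted p under 0.05, DESeq2 2, limma-voom 2), and the median was 0.14. The highest fold of that list was that of Ccr2, a chemokine receptor of monocytes named after its value was seen (log2 fold change 0.85 ± 0.17, SE, edgeR adjusted p = 0.0704). Mertk was at 64.5, 67.9, 80.8 and 74.7 CPM in CDH11-/- libraries, against 49.8, 46.6, 55.1 and 52.2 CPM in CDH11+/+ libraries (0.50 ± 0.08, log2 fold change ± SE, with an edgeR adjusted p = 0.0251). Its call ended when CDH11+/+ replicate 2 (adjusted p = 0.0816) or 4 (0.0961), or CDH11-/- replicate 3 (0.066) or 4 (0.0595), was left out. The abundant C1qb and C1qa were at 0.09 ± 0.15 and 0.11 ± 0.14, and the list summed to 1923 to 2461 CPM in CDH11-/- and 1722 to 2552 CPM in CDH11+/+ libraries. What part the leukocyte lists have in the values of Adgrg5, Adgrg3 and Adgre5 was not tested.

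Stromal and tubule markers complete the account. Of 11 stromal markers 0 passed (5 at an unadjusted p under 0.05, DESeq2 3, limma-voom 4), with a median log2 fold change of 0.35 and a summed level of 1628 to 2228 CPM in CDH11-/- and 1422 to 1996 CPM in CDH11+/+ libraries. Col1a2 and Col1a1 were at 0.35 ± 0.15 and 0.21 ± 0.14. Of 10 proximal tubule markers 0 passed (8 at an unadjusted p under 0.05, DESeq2 5, limma-voom 4), and 0 were positive, with a median of −0.77. The CPM of 5 were lower without overlap, against 3.74% of all tested genes. The lowest log2 fold changes were those of Slc22a8 (−2.31 ± 0.40, SE, edgeR adjusted p = 0.0613) and Slc22a6 (−2.07 ± 0.42, adjusted p = 0.0971), named after their values were seen. Slc34a1, the main phosphate transporter, was at 740.0, 737.5, 779.9 and 545.5 CPM in CDH11-/- and 792.2, 1735, 1016 and 1326 CPM in CDH11+/+ libraries (−0.80 ± 0.24, log2 fold change ± SE, with an edgeR adjusted p = 0.197), and Aqp1 was at −0.14 ± 0.28. The list summed to 1445 to 2292 CPM in CDH11-/- and 2062 to 4167 CPM in CDH11+/+ libraries. Of 10 intercalated and principal cell markers, set beside Adgrf5, 0 passed (1 at an unadjusted p under 0.05, DESeq2 0, limma-voom 0). Their median was −0.07, with Aqp2 and Atp6v1b1 at −0.22 ± 0.10 and −0.08 ± 0.17 and a summed level of 535.1 to 708.7 CPM in CDH11-/- and 586.5 to 732.8 CPM in CDH11+/+ libraries. The part of these lists in the values of the 9 receptor genes was not tested.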

How the data were processed

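Kidneys of 8 mice were profiled by RNA sequencing, with libraries from a directional kit per the labels. The authors deposited a table of counts per Ensembl gene, whole numbers that were analysed as deposited, and a table of normalized values, a signal the authors made by dividing each count by a gene- and library-specific factor. The submitters' processing notes name mm10, DRAGEN and DESeq2, without versions. The annotation used for counting, and whether strand entered it, were not given. There were 0 columns of other samples. Symbols and positions came from GENCODE release M21 (GRCm38), which matched 42256 of 42256 identifiers, and promoter sequences from RefSeq.

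Genes were fitted by quasi-likelihood in edgeR 4.0.16 (R 4.3.3) after its own low-count filter (filterByExpr), with TMM factors, robust dispersion moderation and a single term for labelled genotype, adjusted by Benjamini-Hochberg over 15852 genes. The common biological coefficient of variation was 13.5%. Standard errors are the size of the log2 fold change over the root of its F statistic, and log2 CPM used a prior count of 2. Counts range from 10675309 to 18539479 a library, so genes near 1 CPM carry mostly counting error. Nothing in the labels ties mice to litters or batches, replicates were numbered in order of deposit, and p-values measure the spread between these samples. The calculation was tested on simulated data.

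The 9 genes and the 11 other lists (175 symbols) were chosen with earlier results of these data known. Named genes are the 9, Cdh11, genes past the threshold and those of smallest p among other receptors (6), ligands (6) and G proteins (3), tested protein-coding genes within 250 kb of Adgrg5, the 5 nearest profiles and the 2 most abundant genes of each of 8 marker lists. A named neighbour of Adgrg5 is not reported here. Alternatives were, for scaling, DESeq2 size factors and plain library size; for filtering, no filter and 1 CPM in 4 libraries; and for the test, limma-voom with quality weights (limma 3.58.1), edgeR without robust moderation, DESeq2 1.42.0, limma on the normalized values as log2(value + 1), the authors' factors as edgeR offsets, and leaving out each library.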

Additional observations from a re-analysis of the deposited data

Results flagged for a closer look

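Of 118 groups of 4 libraries examined, 12 had a library whose gap to the nearest of the others exceeded Dixon's critical share of the range for 4 samples, where chance gives about 1 in 20. In CPM, Adgrl4 was at 44.5 in CDH11-/- replicate 4 and 52.2 to 52.4 in the other CDH11-/- libraries. Celsr2 was at 61.3 CPM in that library and 70.0 to 71.6 CPM in the others of its label. Tenm2 was at 3.11 CPM in CDH11-/- replicate 3 against 2.07 to 2.12 CPM, Lama2 at 25.4 CPM in CDH11-/- replicate 1 against 33.6 to 35.3 CPM, and Slc24a5 at 2.65 CPM in CDH11-/- replicate 2 against 1.53 to 1.68 CPM in the other CDH11-/- libraries. Celsr1 was at 40.3 CPM in CDH11+/+ replicate 1 against 50.4 to 51.2 CPM, and Cx3cl1 at 212.0 CPM in CDH11+/+ replicate 2 against 247.0 to 250 CPM in the other CDH11+/+ libraries.

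The authors' factor, relative to the median of its library, stood apart for 5 of the 9 receptor genes. For Adgre5 it was 0.897 in CDH11-/- replicate 4 against 1.01 to 1.02 in the other CDH11-/- libraries. For Adgrg5 it was 0.593 in CDH11+/+ replicate 1 against 1.12 to 1.16 in the others of that label. In CDH11+/+ replicate 4 it was 1.08 for Adgrg1 against 0.946 to 0.961, and 1.21 for Adgrg3 against 0.962 to 0.9999. For Adgrl4 it was 1.22 in CDH11+/+ replicate 3 against 0.917 to 0.949 in the other CDH11+/+ libraries.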

How the results depend on the processing

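Log2 fold changes of the 9 receptor genes kept their sign in all 17 alternatives. Their ranges were 2.03 to 2.32 for Adgrg5, 0.40 to 0.51 for Adgrl4, 0.21 to 0.33 for Adgre5, 0.10 to 0.21 for Adgrf5, 0.06 to 0.16 for Adgra2, −0.14 to −0.06 for Adgrg1, −0.28 to −0.10 for Adgrg3, −0.30 to −0.15 for Adgrl2 and −1.20 to −0.95 for Adgrf1. Among other named genes, the sign changed in 8, of which Cd8a had the lowest edgeR adjusted p (0.712). With limma-voom, log2 fold changes were −0.0213 for Cd8a, 0.00479 for Csf3r, 0.116 for Il5ra and −0.0041 for Arl2bp, and with offsets 0.00314 for Il5ra. With 1 library left out they ran from −0.129 to 0.0926 for Csf3r, −0.24 to 0.0926 for Il5ra, −0.297 to 0.0184 for Aqp1, −0.2 to 0.0334 for Atp6v1b1, −0.00823 to 0.0332 for Arl2bp, −0.107 to 0.00286 for Polr2c and −0.00663 to 0.155 for Dok4. The 115 genes past the threshold became 532 with DESeq2, 685 with limma-voom, 65 with the authors' factors as offsets, 54 with limma on normalized values, 312 at an adjusted p under 0.1, and 27 to 993 when 1 library was left out. The log2 fold change of Cdh11 was 0.25 with offsets (adjusted p = 0.531), 0.26 with limma on normalized values (0.524), and 0.636 to 0.796 with 1 library left out. The ligands past the threshold (1) became 0 with offsets and with limma on normalized values, 2 with limma-voom and 0 to 3 with 1 library left out. The G protein list (0) gave 1 with limma-voom and 0 to 2 with 1 library left out, and the other receptors (0) gave 0 to 1. The neighbours within 500 kb (0) gave 1 with DESeq2, library size alone, limma-voom and no filter, and 0 to 2 with 1 library left out. Those within 10 Mb of Cdh11 (0) gave 8 with DESeq2, 1 with library size alone, 10 with limma-voom, 2 with no filter and 0 to 17 with 1 library left out. The marker lists together (1) gave 2 with DESeq2 size factors, offsets, library size alone and limma on normalized values, 3 with no filter, 4 with no robust moderation, 18 with DESeq2, 19 with limma-voom and 0 to 22 with 1 library left out. In windows of 250 kb and 1 Mb around Adgrg5 and 5 Mb around Cdh11, 0 of 12, 0 of 41 and 0 of 90 genes passed in edgeR. The cause of these shifts was not tested. No paired analysis was possible because the labels carry no replicate numbers. Depth limits Adgrf1, Tenm2 and Slc24a5, which rest on few counts.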
